A study of Rattus norvegicus with 58 samples.

Results

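The genes described here encode the subunits of the proteasome and the proteins that build it or open it, measured as messenger RNA in liver and kidney of rats given the industrial alcohol 4-methylcyclohexanemethanol (MCHM), which is used in coal processing. A probe set, the group of probes that reports on a transcript, was a member if its only gene symbol began with Psma, Psmb, Psmc, Psmd or Psme followed by a number, without Psmb8, Psmb9 and Psmb10. This took 52 of 31099 probe sets on the array, for 38 of the 14218 genes that have a probe set of their own. Of these genes, 29 had 1 probe set and 9 had several. The symbols of 2 genes, Psmc3ip and Psme3ip1, fit the letters although their products are not subunits, so 36 genes with a role in the proteasome remained. The rats were male Harlan Sprague-Dawley animals dosed by gavage for 5 days with 0.1, 1, 10, 100, 300 or 500 mg/kg, and controls received 0 mg/kg by the same route. Each organ had 4 arrays at each of the 6 doses and 5 control arrays, 29 in all, and the labels call them biological replicates. The sources used here do not give the age of the animals or the vehicle. Values are log2 intensities summarised by RMA, and a difference of 1 is a doubling.

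The proteasome is the barrel-shaped protease that degrades proteins tagged with ubiquitin in the cytosol and nucleus. Its core is a stack of rings: alpha subunits (Psma) form the gated ends, and beta subunits (Psmb) form the middle and carry the cutting sites. A cap of base ATPases (Psmc) and of non-ATPase base and lid subunits (Psmd) binds, unfolds and strips ubiquitin from the substrate. Psme proteins are alternative activators that open the gate without ATP. In mammalian cells the transcription factor Nrf1 (gene Nfe2l1) raises many subunit genes together when the protease is impaired, and in liver the related factor Nrf2 is known to raise some of them under oxidative or electrophilic stress.

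Members that shift together invite a look at their promoters, so stretches upstream of the annotated start are shown for Psmb5, Psmd7 and Psma3, the members with the 3 smallest p-values along the dose order in liver, for Psmb3, which had the smallest p along the dose order in kidney, and for Psmb2, which had the second smallest there at 500 mg/kg. Psmd6, which ranked first in kidney at 500 mg/kg and second along the dose order, is not shown. Each line gives the 130 bases before the start, 5′ to 3′ in the direction of the gene, from RefSeq on build GRCr8. Capitals mark matches on either strand to the motifs searched, which in these stretches were the antioxidant response element core TGACNNNGC, which Nrf2 and Nrf1 bind, and the CCAAT box, which the factor NF-Y binds.
Psmb5: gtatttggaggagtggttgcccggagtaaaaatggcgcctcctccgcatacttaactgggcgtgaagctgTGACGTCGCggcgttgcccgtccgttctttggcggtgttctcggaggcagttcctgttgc
Psmd7: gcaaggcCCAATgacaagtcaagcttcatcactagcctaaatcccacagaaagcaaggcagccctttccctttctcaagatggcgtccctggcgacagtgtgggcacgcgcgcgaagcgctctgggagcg
Psma3: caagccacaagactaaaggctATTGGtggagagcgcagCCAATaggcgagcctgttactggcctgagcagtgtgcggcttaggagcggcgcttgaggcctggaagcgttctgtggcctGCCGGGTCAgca
Psmb3: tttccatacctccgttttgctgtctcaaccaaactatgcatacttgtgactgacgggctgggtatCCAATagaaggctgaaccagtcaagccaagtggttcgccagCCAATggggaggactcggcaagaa
Psmb2: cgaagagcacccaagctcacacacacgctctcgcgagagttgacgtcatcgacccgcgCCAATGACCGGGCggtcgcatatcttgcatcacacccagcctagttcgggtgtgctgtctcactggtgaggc
The stretches lie at chr15:32047380-32047509 (minus strand) for Psmb5, chr19:52411317-52411446 (minus strand) for Psmd7 and chr6:95219619-95219748 (plus strand) for Psma3. Those of Psmb3 and Psmb2 lie at chr10:83193657-83193786 and chr5:144254928-144255057, both on the plus strand. The response element core begins 60 bases before the start in Psmb5, 68 in Psmb2 and 12 in Psma3, and in Psmb2 it overlaps a CCAAT box by its T. Psmd7 and Psmb3 showed CCAAT boxes but no response element core in these letters.

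Over the 250 bases upstream, 32 of the 36 genes had a window in the RefSeq table. On both strands, TGACNNNGC occurred in 6 of the 32 windows (18.8%), against 10.1% of all 33469 windows. Those genes were Psmb5, Psmb2, Psma3, Psmd1, Psmd9 and Psme4. CCAAT occurred in 16 member windows (50%, against 34% of all) and the ETS core CCGGAAG in 9 (28.1%, against 7.27%). The palindromic nuclear respiratory factor 1 site occurred in 1, Psma2 (3.12%, against 0.762%), and the heat shock element in 0, against 0.663%. These are matches of letters, not measured binding. The background is every window in the RefSeq table, whether or not its gene was measured or kept here. Members were not compared with genes of like expression.

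Expression was compared only for probe sets that exceeded the 40th percentile of the same array in 4 or more arrays of an organ. This kept 50 member probe sets in liver and 49 in kidney, with all 38 genes in each. Left out were Psmb5 1385531_at and Psmd11 1380252_at in both organs and Psmb5 1385532_x_at in kidney, whose genes were measured by brighter probe sets. A further 6 probe sets list a proteasome symbol beside other symbols, so Psmb6, a catalytic subunit, and Psme3, an activator, have no value here. Array medians lay between 5.26 and 5.38. Organ markers fit the labels: the liver transcript of albumin (Alb) measured 14.80 to 14.85 in control livers, and the kidney transcript Umod measured 12.88 to 13.79 in control kidneys and 4.30 to 5.16 in control livers. Alb spread from 3.02 to 11.70 over the control kidneys. In 2 kidneys, replicate 3 at 300 mg/kg and replicate 3 at 500 mg/kg, the mean of the 6 measured adipose markers was 11.39 and 10.50, while no other kidney exceeded 6.98.

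**Figure D1:**
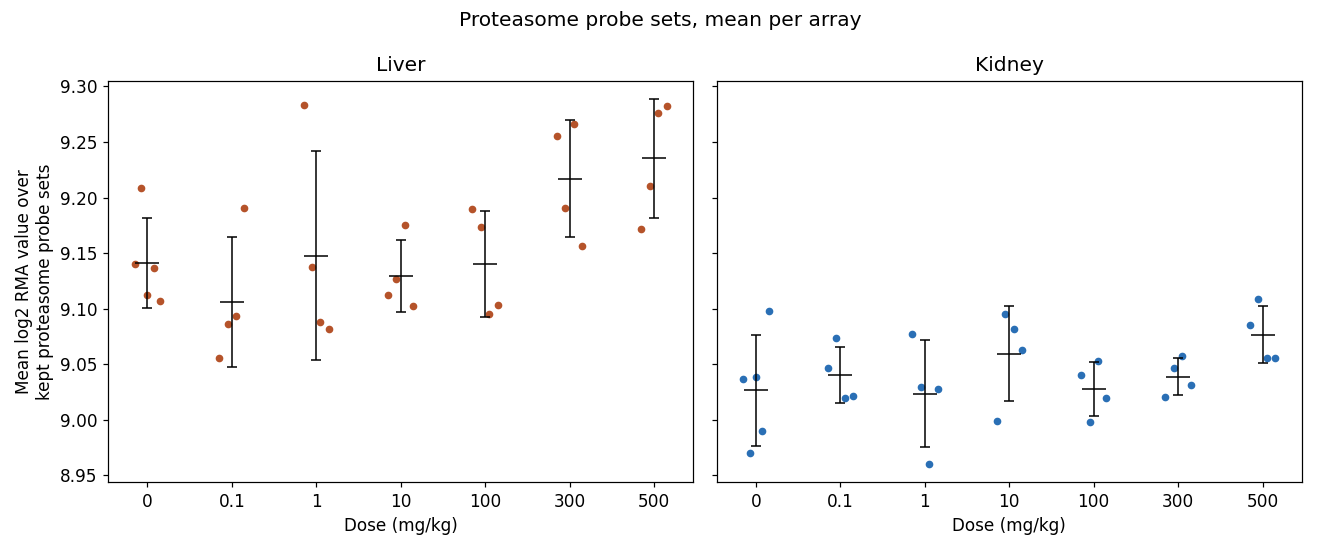
Mean log2 RMA value over the member probe sets on each array (points), with group mean and SD (bars), by dose in mg/kg, liver on the left and kidney on the right. Liver means were 9.22 at 300 mg/kg and 9.24 at 500 mg/kg, against 9.14 in controls, and the arrays of these groups overlapped.

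Taken as a mean over all members, proteasome transcripts in liver stood slightly higher at the top doses, while group means up to 100 mg/kg were near the control mean, although 1 array at 1 mg/kg reached 9.28. The mean over the 50 probe sets was 9.16, 9.19, 9.25 and 9.27 on the 4 arrays at 300 mg/kg, and 9.17, 9.21, 9.28 and 9.28 at 500 mg/kg. Control livers measured 9.11, 9.11, 9.14, 9.14 and 9.21, so the highest control overlapped the lower arrays of both dose groups. Group means were 9.22 ± 0.052 at 300 mg/kg and 9.24 ± 0.054 at 500 mg/kg (SD, n = 4 each), and 9.14 ± 0.041 in controls (SD, n = 5). Against control this is 0.076 and 0.094 higher, while the mean over all kept probe sets differed by -0.014 and -0.0031. In kidney the mean was 9.06, 9.06, 9.09 and 9.11 at 500 mg/kg, inside the control range of 8.97 to 9.10 except for the highest array. Since these are whole organs, a change in the share of a cell type and a change in RNA per cell cannot be told apart.

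At 500 mg/kg in liver, no member passed on its own: 0 of 50 had an adjusted p under 0.05 in limma, where 0.649% of all 20028 probe sets did. The direction was nevertheless shared. Of the 50, 42 were higher than control (84%, against 50.5% of all probe sets), and the median difference was 0.096, against 0.0019 for all. With each array left out, 40 to 47 were higher. Members varied together between animals of a group, as described below, so such counts are not counts of independent results. At an unadjusted p under 0.05, 15 were higher and 0 lower, which is 30% and 0% against a background of 5.68% higher and 6.79% lower. All 4 dosed arrays lay above all 5 controls for 5 probe sets (10%, against 2.28%): Psmb5, Psmd7, Psmb3, Psma1 and Psmb7. The 5 smallest p-values belonged to Psmb5, Psmd7, Psmb3, Psmc6 and Psmb1, with adjusted p between 0.138 and 0.234 in limma. The differences were small, from -0.13 to 0.29, and the 95% intervals of 49 of the 50 lay within 0.5 either way.

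At 300 mg/kg in liver the members looked alike. Again 0 of 50 passed in limma, where 0.02% of all probe sets did, and 45 were higher than control (90%, against 47%). With each array left out, 41 to 47 were higher. The median difference was 0.078, against -0.0091 for all. At an unadjusted p under 0.05, 4 were higher (8%, against 2.95% of all) and 0 lower (against 4.65%): Psma1, Psmd3, Psma5 and Psma3, followed in order of p by Psmc4. Dosed and control arrays did not overlap for 5 (10%, against 1.27%), namely these first 4 and Psmd7. The comparisons at 300 and 500 mg/kg share the same 5 control livers, so their similarity is not independent.

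**Figure D2:**
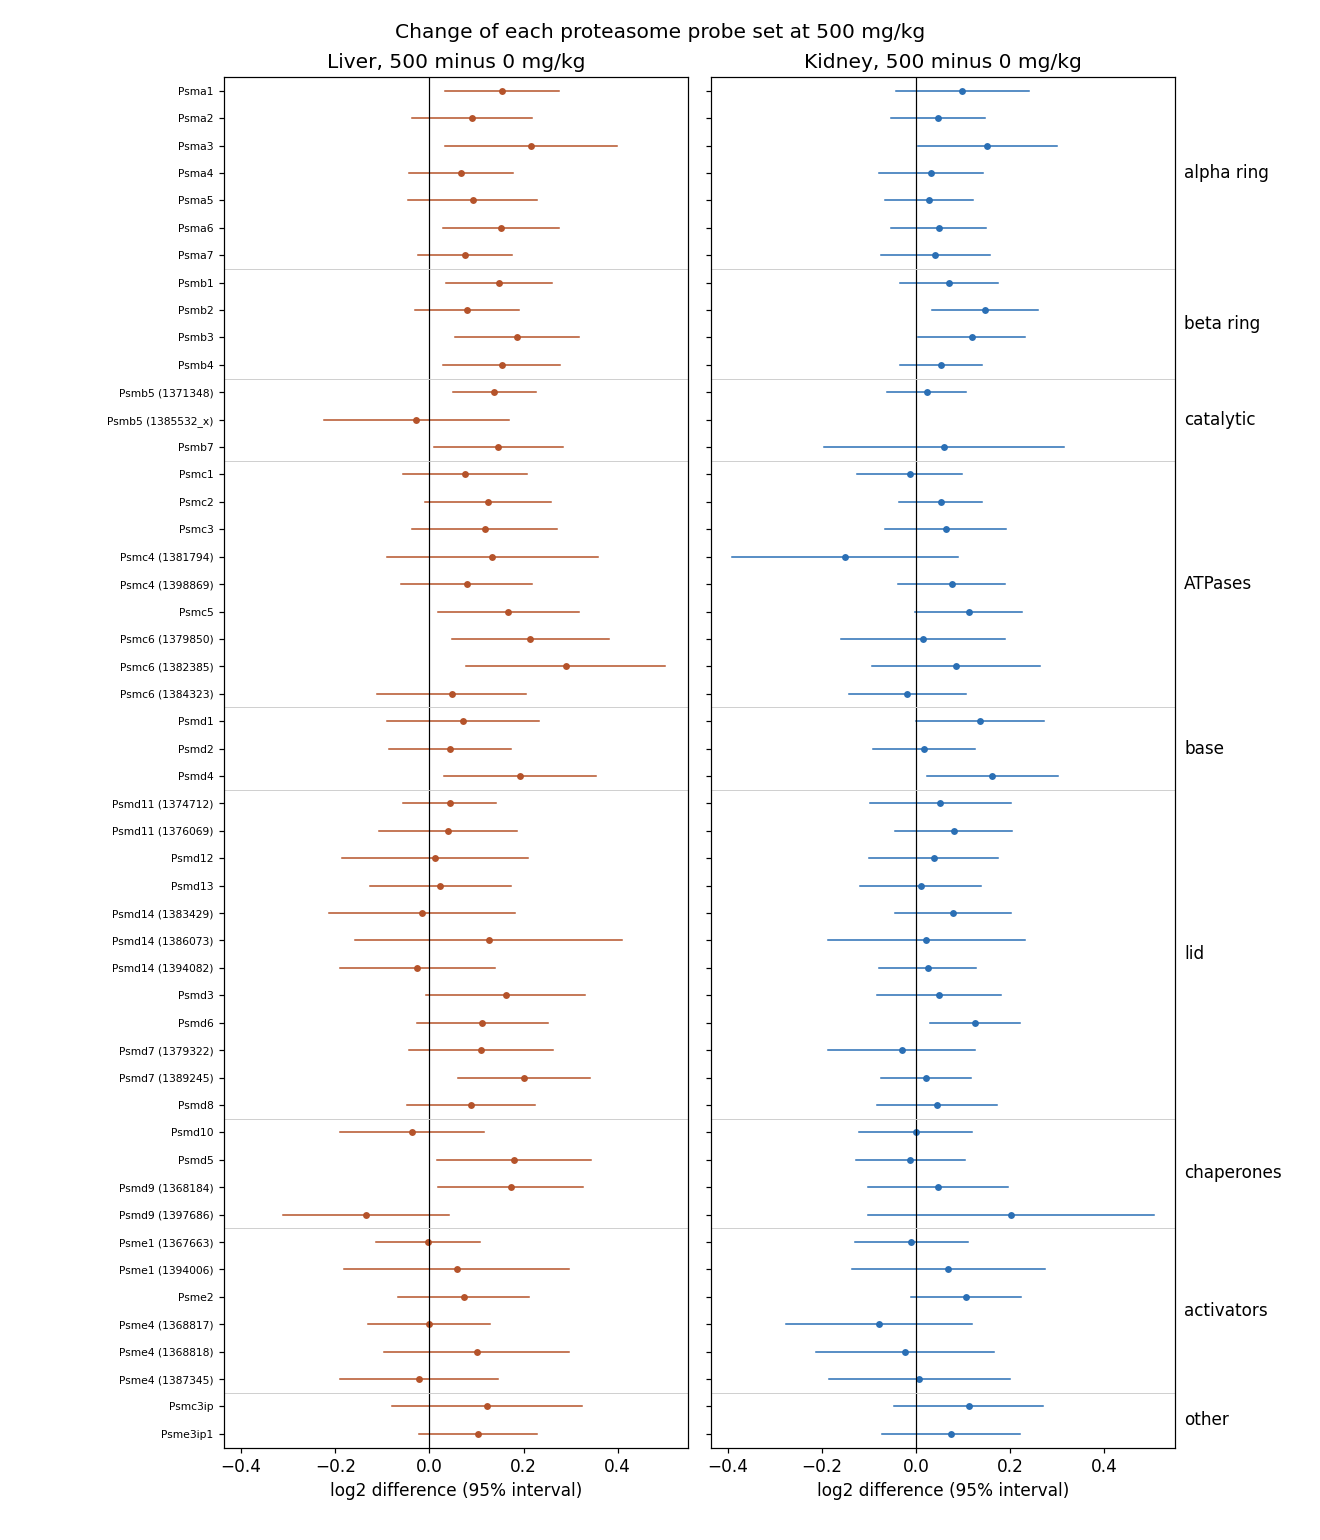
Difference of each member probe set from control at 500 mg/kg on the log2 scale with its 95% interval, liver left and kidney right, in order of role; 0 is the control mean. In liver 42 of 50 points lie right of 0, and in kidney 40 of 49.

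Among the alpha subunits, which form the gate of the core, 7 of 7 probe sets were higher than control in liver at 500 mg/kg, with a median of 0.092, and 7 of 7 at 300 mg/kg, with a median of 0.13. Psma1 measured 10.46, 10.51, 10.52 and 10.52 at 300 mg/kg and 10.40, 10.47, 10.52 and 10.57 at 500 mg/kg, against 10.23, 10.32, 10.36, 10.38 and 10.39 in controls. Every array of both dose groups exceeded every control. Its difference was 0.17 ± 0.059 at 300 mg/kg (SE, limma adjusted p = 0.539) and 0.15 ± 0.059 at 500 mg/kg (adjusted p = 0.254). Psma3 measured 7.87, 7.91, 7.93 and 7.99 at 300 mg/kg and 7.77, 7.93, 8.02 and 8.07 at 500 mg/kg, against 7.63, 7.70, 7.77, 7.78 and 7.79 in controls. Its 300 mg/kg arrays stood apart from control, and at 500 mg/kg 1 array reached down into the control range. Psma5 measured 10.62, 10.64, 10.69 and 10.73 at 300 mg/kg and 10.50, 10.54, 10.67 and 10.75 at 500 mg/kg, against 10.41, 10.51, 10.54, 10.56 and 10.60 in controls. For Psma5 too the groups separated only at 300 mg/kg. Psma6 differed by 0.15 ± 0.060 at 500 mg/kg (SE), and Psma2, Psma4 and Psma7 by 0.067 to 0.091.

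In the beta ring, Psmb5 had the smallest p of all members in liver at 500 mg/kg. It is the subunit with chymotrypsin-like activity, the main target of proteasome inhibitor drugs. Its brightest probe set, 1371348_at, measured 11.20, 11.33, 11.35 and 11.38 at 300 mg/kg and 11.35, 11.39, 11.42 and 11.43 at 500 mg/kg, against 11.21, 11.22, 11.28, 11.28 and 11.30 in controls. All 4 arrays at 500 mg/kg lay above every control, while 1 array at 300 mg/kg lay below them all. The difference at 500 mg/kg was 0.14 ± 0.043 (SE, limma adjusted p = 0.138). The faint probe set Psmb5 1385532_x_at, with a mean of 4.64 in control livers, differed by -0.028 ± 0.096. Psmb7, the trypsin-like subunit, measured 9.30, 9.52, 9.57 and 9.58 at 300 mg/kg and 9.49, 9.53, 9.55 and 9.64 at 500 mg/kg, against 9.38, 9.38, 9.39, 9.43 and 9.44 in controls. Its 500 mg/kg arrays were all above control, with a difference of 0.15 ± 0.067 (SE, limma adjusted p = 0.355).

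The beta subunits without a cutting site, Psmb1 to Psmb4, were higher than control in 4 of 4 cases at 500 mg/kg, with a median of 0.15. Psmb3 measured 10.22, 10.27, 10.36 and 10.37 at 300 mg/kg and 10.33, 10.43, 10.47 and 10.51 at 500 mg/kg, against 10.17, 10.21, 10.27, 10.30 and 10.31 in controls. Only its 500 mg/kg arrays stood wholly above control, by 0.19 ± 0.064 (SE, limma adjusted p = 0.190). Psmb1 measured 11.19, 11.40, 11.45 and 11.47 at 300 mg/kg and 11.34, 11.46, 11.46 and 11.55 at 500 mg/kg, against 11.28, 11.29, 11.29, 11.31 and 11.35 in controls. The lowest 500 mg/kg array of Psmb1 fell just under the highest control, and its difference was 0.15 ± 0.055 (SE). Psmb4 differed by 0.15 ± 0.061 and Psmb2 by 0.080 ± 0.054 (SE).

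The base ATPases, whose ring unfolds the substrate, were higher than control in 9 of 9 probe sets in liver at both 300 and 500 mg/kg, with medians of 0.10 and 0.12. Psmc6 has 3 probe sets, which differed at 500 mg/kg by 0.29 ± 0.10 (1382385_at), 0.21 ± 0.081 (1379850_at) and 0.047 ± 0.077 (1384323_at, SE each). The first of these measured 7.66, 7.85, 7.92 and 8.11 at 500 mg/kg, against 7.45, 7.50, 7.62, 7.68 and 7.73 in controls, with 1 dosed array inside the control range. It was as high at low doses: its difference was 0.26 ± 0.10 at 1 mg/kg and 0.24 ± 0.10 at 10 mg/kg (SE), and both groups lay wholly above control. Psmc5 differed by 0.17 ± 0.073 at 500 mg/kg (SE). Psmc4, in its brightest probe set 1398869_at, measured 9.97, 10.00, 10.05 and 10.13 at 300 mg/kg and 9.88, 9.96, 10.03 and 10.05 at 500 mg/kg, against 9.81, 9.86, 9.87, 9.95 and 10.01 in controls. Its groups overlapped at both doses.

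Of the other base subunits, Psmd4, a ubiquitin receptor, differed most in liver. It measured 9.11, 9.23, 9.27 and 9.28 at 300 mg/kg and 9.18, 9.24, 9.27 and 9.35 at 500 mg/kg, against 9.00, 9.01, 9.02, 9.08 and 9.24 in controls. All of these dosed arrays were above 4 of the 5 controls, and the difference at 500 mg/kg was 0.19 ± 0.079 (SE). The large scaffold subunits Psmd1 and Psmd2 differed by 0.071 ± 0.079 and 0.044 ± 0.063 (SE).

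The lid, which removes ubiquitin chains, was less uniform: 10 of 12 probe sets were higher than control at 500 mg/kg, with a median of 0.066. Psmd7, the partner of the lid's deubiquitinase, has 2 probe sets. The brighter in liver, 1389245_at, measured 9.54, 9.56, 9.58 and 9.60 at 300 mg/kg and 9.60, 9.67, 9.70 and 9.72 at 500 mg/kg, against 9.40, 9.42, 9.50, 9.50 and 9.54 in controls. Every dosed array at both doses was above the highest control, although the lowest at 300 mg/kg equals it as rounded here, and the difference at 500 mg/kg was 0.20 ± 0.068 (SE, limma adjusted p = 0.184). The other, 1379322_at, differed by 0.11 ± 0.074 and overlapped. Psmd14, the deubiquitinase itself (1383429_at), measured 9.62, 9.70, 9.97 and 10.01 at 300 mg/kg and 9.46, 9.74, 9.74 and 9.74 at 500 mg/kg, against 9.55, 9.62, 9.66, 9.79 and 9.81 in controls. It overlapped control at both doses, and differed by -0.015 ± 0.096 at 500 mg/kg (SE). Psmd11, a lid scaffold (1374712_at), measured 10.53, 10.56, 10.67 and 10.68 at 300 mg/kg and 10.52, 10.57, 10.58 and 10.64 at 500 mg/kg, against 10.47, 10.53, 10.54, 10.55 and 10.58 in controls. These groups overlapped as well. Psmd3 differed by 0.19 ± 0.082 at 300 mg/kg and 0.16 ± 0.082 at 500 mg/kg (SE), and Psmd12 and Psmd13 by 0.012 and 0.023 at 500 mg/kg.

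The activators gave the smallest values in liver, with 3 of 6 probe sets above control at 500 mg/kg and a median of 0.029. Psme1, which forms with Psme2 a ring activator that interferon gamma induces, measured 11.35, 11.36, 11.38 and 11.38 at 300 mg/kg and 11.24, 11.35, 11.38 and 11.46 at 500 mg/kg (1367663_at). Its controls measured 11.30, 11.33, 11.37, 11.38 and 11.43. The dosed arrays lay on both sides of them, and the 95% interval of the 500 mg/kg difference ran from -0.11 to 0.11. Psme2, its partner, measured 9.92, 9.94, 9.95 and 10.00 at 300 mg/kg and 9.82, 9.98, 9.99 and 10.20 at 500 mg/kg, against 9.84, 9.85, 9.96, 9.97 and 10.02 in controls. Psme4, a nuclear activator (1368817_at), measured 9.43, 9.46, 9.46 and 9.73 at 300 mg/kg and 9.46, 9.48, 9.52 and 9.58 at 500 mg/kg, against 9.41, 9.44, 9.54, 9.56 and 9.61 in controls. Neither Psme2 nor Psme4 separated from control. Among the chaperones that assemble the base and then leave, Psmd5 differed by 0.18 ± 0.080, Psmd10 by -0.037 ± 0.074, and Psmd9 by 0.17 ± 0.075 (1368184_at) and -0.13 ± 0.086 (1397686_at, SE each). The 2 probe sets of Psmd9 had opposite signs, but 1397686_at is faint, with a mean of 5.20 in control livers against 8.18 for 1368184_at.

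**Figure D3:**
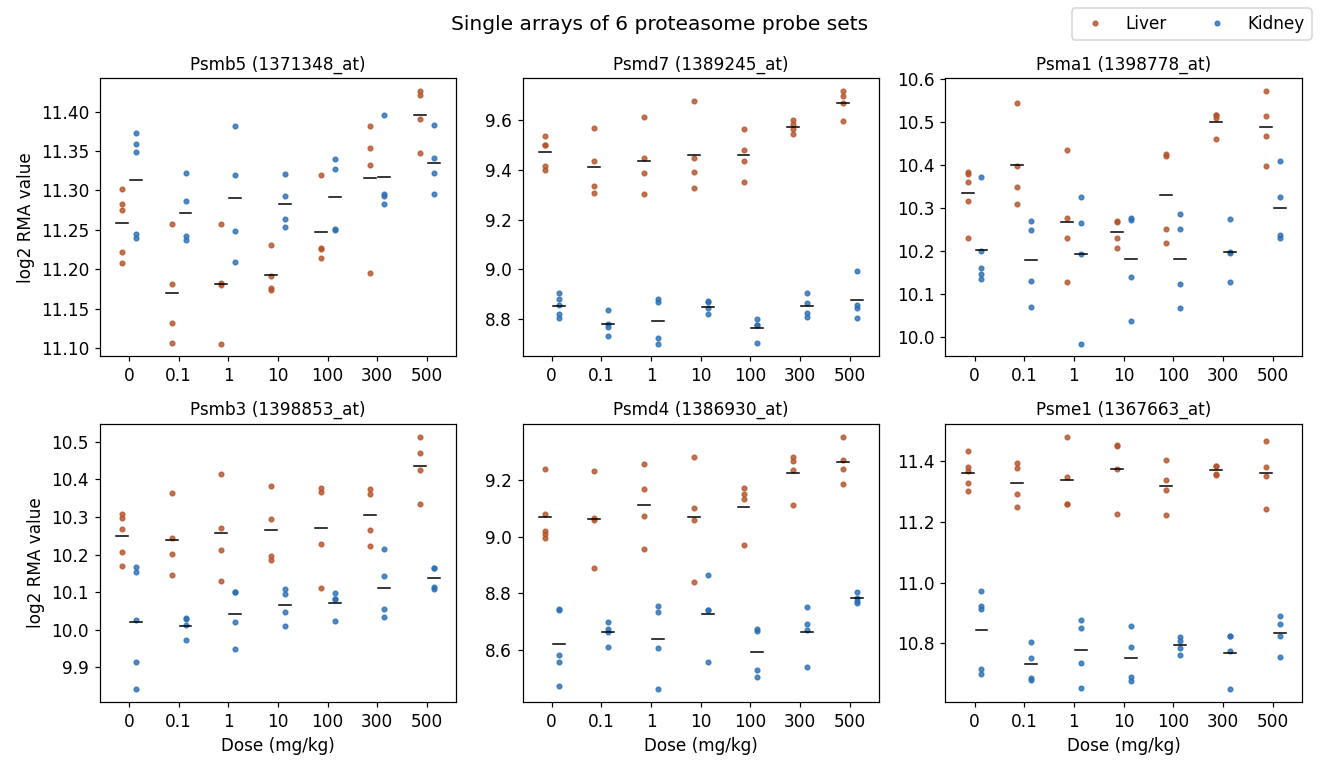
Single arrays (points) and group means (lines) of 6 member probe sets by dose in mg/kg, as log2 RMA values, liver in brown and kidney in blue. Psmb5, Psmd7, Psma1, Psmb3 and Psmd4 in liver have their highest group means at 300 or 500 mg/kg, and the group means of Psme1 show no such step.

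Across all 7 dose groups, the result depended on how dose was entered. With the rank of the dose, 0 of 50 members passed in liver in limma (background 1.13%), although 24 were higher and 1 lower at an unadjusted p under 0.05, against 6.35% higher and 8.53% lower among all. The smallest adjusted p was 0.0688, for Psmb5, followed by Psmd7, Psma3, Psmb1 and Psma6, and the 1 lower was Psmd9 1397686_at. With the dose itself as a linear term, which gives most of the weight to 300 and 500 mg/kg, 13 members rose and 0 fell, 26% of 50 against a background of 5.36%, 1.86% rising and 3.51% falling. At an unadjusted p under 0.05, 23 slopes were above 0 and 0 below (7.79% and 11.2% of all). The 13 were Psma1, Psma5 and Psma6 of the alpha ring, Psmb1, Psmb2 and Psmb3 of the beta ring, the catalytic Psmb5 and Psmb7, the ATPase Psmc5, Psmd4 of the base, Psmd3 and Psmd7 of the lid, and Psme3ip1, which is not a subunit. No assembly chaperone and no Psme activator was among them.

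Per 100 mg/kg, Psmd7 rose by 0.045 ± 0.0098 (SE, limma adjusted p = 0.0049) and Psmb5 by 0.038 ± 0.0066 (adjusted p = 0.000542). Psma1 rose by 0.041 ± 0.0099 (adjusted p = 0.0104) and Psmb1 by 0.033 ± 0.0079 (adjusted p = 0.0108). The other 9 rose by 0.029 to 0.042 per 100 mg/kg, with adjusted p between 0.0311 and 0.0481. The median slope of all 50 members was 0.024 and 48 slopes were above 0 (96%, against 49.9% of all). Single libraries carried part of this count: it was 3 without liver 500 mg/kg replicate 3, 5 without replicate 4 of that dose, and 5, 6 and 7 without liver 300 mg/kg replicate 1, 300 mg/kg replicate 3 and 1 mg/kg replicate 3. Over all 29 such omissions it ran from 3 to 16. It was 5 with no filter on low values, 6 with eBayes without the intensity trend and 8 with the replicate number as a block. Psmd7 and Psma1 passed in each of 39 alternatives, while Psmc5 and Psme3ip1 missed the threshold in 24.

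Other transcripts moved with dose in the same livers. The mean of the 13 measured macrophage and lymphocyte markers was 6.44 to 6.79 at 500 mg/kg, against 6.61 to 6.83 in controls, and 7 of the 13 fell along the linear dose term, led by Ptprc (-0.090 ± 0.019 per 100 mg/kg, SE, limma adjusted p = 0.0043). Whether a change in cell composition has a part in the proteasome values was not tested. The actin 3′ minus 5′ difference, a sign of RNA quality, averaged 2.00 at 500 mg/kg and 1.99 in controls.

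At low doses no member passed in either organ; the members named here and for kidney below are ordered by p, whatever their sign. In liver, 0 of 50 passed at 0.1, 1, 10 and 100 mg/kg in limma, with a background of 0% at each. The medians were -0.042, -0.0099, -0.0047 and -0.00067, and 12, 23, 22 and 25 of 50 were above control. With each array left out, these counts ran from 8 to 21, 9 to 35, 15 to 28 and 18 to 30. At 0.1 mg/kg, 0 were higher and 2 lower at an unadjusted p under 0.05 (1.88% and 2.29% of all probe sets), Psme3ip1 and Psmb5 (-0.14 ± 0.061 and -0.089 ± 0.043, SE), ahead of Psmc2, Psme1 1394006_at and Psme2. At 1 mg/kg, 2 were higher and 0 lower at that level (3.42% and 2.37% of all), both of them Psmc6 probe sets, ahead of Psmb5, the third Psmc6 probe set and Psmb2. At 10 mg/kg 1 was higher and 0 lower (3.51% and 2.62% of all), again Psmc6 (1382385_at), ahead of both Psmb5 probe sets, Psma1 and Psmd9 1368184_at. At 100 mg/kg it was 0 each way (1.61% and 2.18% of all), with Psma3, Psme2, Psmd9 1397686_at, Psmd8 and Psmc4 1398869_at leading at unadjusted p of 0.2 or more. The Psmb5 mean thus lay below control at the 3 lowest doses, with differences of -0.089, -0.077 and -0.065, and above it at 300 and 500 mg/kg.

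**Figure D4:**
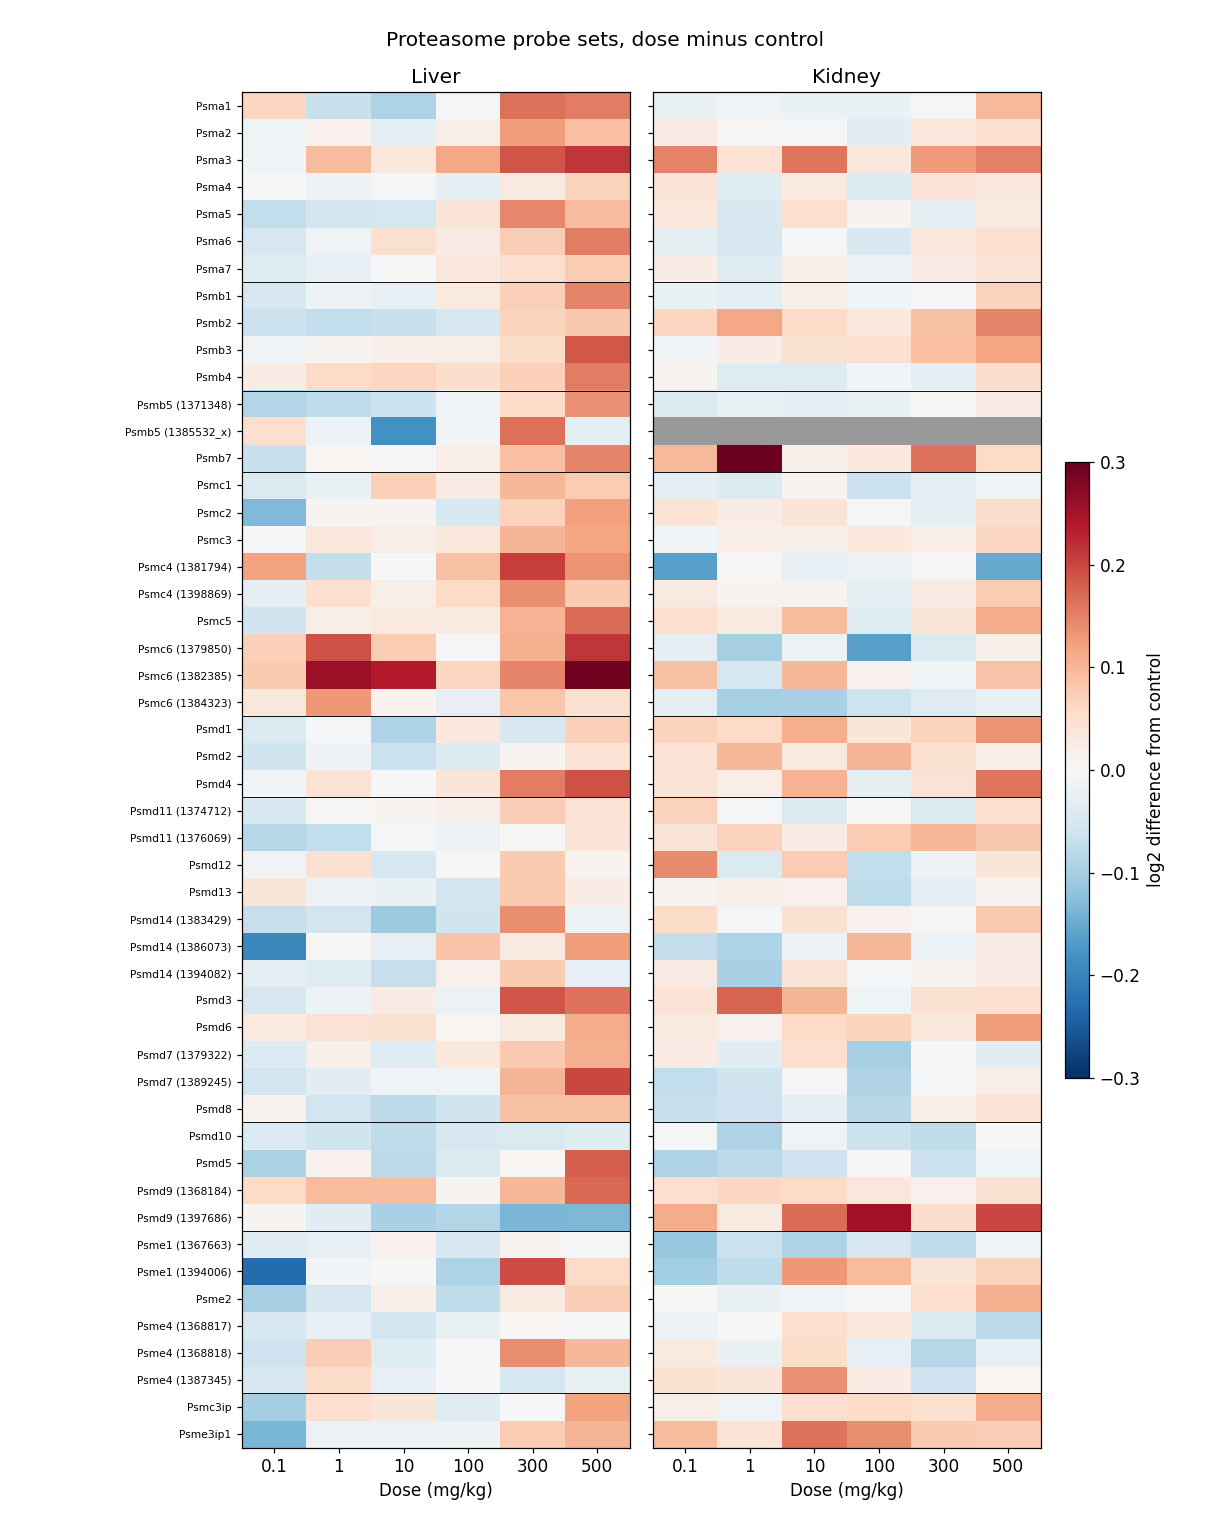
Difference of each member probe set from its organ's control at each dose in mg/kg, on the log2 scale from -0.3 (blue) to 0.3 (red), liver left and kidney right, in the same order of roles as the intervals at 500 mg/kg; grey marks a probe set not kept. In liver the 300 and 500 mg/kg columns are mostly red, with 45 and 42 of 50 above 0.

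In kidney, shifts were smaller. At 500 mg/kg 0 of 49 members passed in limma, with a background of 0.0203%, and 40 were above control (81.6%, against 54.6%). The median was 0.048, against 0.013 for all. At an unadjusted p under 0.05, 5 were higher (10.2%, against 5.55%) and 0 lower (against 2.89%): Psmd6, Psmb2, Psmd4, Psmb3 and Psma3, with limma adjusted p from 0.407 to 0.574. Dosed and control arrays did not overlap for Psmd4 and Psma3 (4.08%, against 1.84%). Psmd4 measured 8.77, 8.77, 8.78 and 8.81 at 500 mg/kg, against 8.48, 8.56, 8.58, 8.74 and 8.74 in controls. Psma3 measured 7.90, 7.93, 8.00 and 8.11 at 500 mg/kg, against 7.76, 7.78, 7.83, 7.89 and 7.90 in controls. The dosed arrays of both began just above the highest control (equal to it as rounded for Psma3), by less than the spread of the controls. Psmb2 measured 10.30, 10.35, 10.39 and 10.41 at 500 mg/kg, against 10.11, 10.16, 10.18, 10.27 and 10.36 in controls, a difference of 0.15 ± 0.055 (SE). Psmd6, a lid subunit, differed by 0.13 ± 0.047 (SE).

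The catalytic subunits and activators did not separate from control in kidney at 300 or 500 mg/kg. At these doses Psmb5 differed by 0.0037 and 0.022, and Psmb7 by 0.16 and 0.060. The 0.16 of Psmb7 was the largest member difference at 300 mg/kg. Psme2 differed by 0.050 and 0.11, Psme1 (1367663_at) by -0.076 and -0.010, and Psme4 (1368817_at) by -0.042 and -0.079. Psmb5 measured 11.28, 11.29, 11.30 and 11.40 at 300 mg/kg and 11.30, 11.32, 11.34 and 11.38 at 500 mg/kg, against 11.24, 11.24, 11.35, 11.36 and 11.37 in controls. Psmb7 measured 8.88, 8.89, 8.94 and 9.28 at 300 mg/kg and 8.85, 8.85, 8.93 and 8.95 at 500 mg/kg, against 8.70, 8.72, 8.83, 8.89 and 9.03 in controls. Dosed arrays of both overlapped the controls, with a single array each at 300 mg/kg, and for Psmb5 1 array at 500 mg/kg, above the highest control. Psma5 measured 9.93, 10.07, 10.07 and 10.15 at 300 mg/kg and 10.09, 10.10, 10.10 and 10.14 at 500 mg/kg, against 9.99, 10.06, 10.08, 10.12 and 10.16 in controls. Psmc4 (1398869_at) measured 9.79, 9.79, 9.85 and 9.91 at 300 mg/kg and 9.79, 9.90, 9.91 and 9.95 at 500 mg/kg, against 9.77, 9.77, 9.83, 9.84 and 9.84 in controls. The groups of both genes overlapped.

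In the kidney lid, Psmd11 (1374712_at) measured 9.84, 9.98, 10.09 and 10.13 at 300 mg/kg and 9.97, 10.13, 10.13 and 10.19 at 500 mg/kg, against 9.98, 10.00, 10.02, 10.12 and 10.14 in controls. Psmd14 (1383429_at) measured 9.23, 9.27, 9.34 and 9.36 at 300 mg/kg and 9.27, 9.35, 9.41 and 9.47 at 500 mg/kg, against 9.20, 9.21, 9.30, 9.31 and 9.46 in controls. Neither separated from control. Among activators, Psme1 (1367663_at) measured 10.65, 10.78, 10.82 and 10.82 at 300 mg/kg and 10.76, 10.83, 10.86 and 10.89 at 500 mg/kg, against 10.70, 10.72, 10.91, 10.92 and 10.97 in controls. Psme2 measured 9.18, 9.29, 9.33 and 9.44 at 300 mg/kg and 9.30, 9.36, 9.38 and 9.42 at 500 mg/kg, against 9.17, 9.20, 9.27, 9.32 and 9.35 in controls. Psme4 (1368817_at) measured 9.07, 9.23, 9.30 and 9.34 at 300 mg/kg and 9.00, 9.24, 9.25 and 9.31 at 500 mg/kg, against 9.01, 9.25, 9.26, 9.40 and 9.47 in controls. All 3 activator genes overlapped their controls, with Psme2 toward the upper end at 500 mg/kg.

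At 300 mg/kg the kidney median was 0.0087 (against -0.0059 for all), and 0 of 49 passed in limma, with 0 at an unadjusted p under 0.05 in either direction (background 0% adjusted, 2.84% higher and 3.35% lower unadjusted). Psma3, Psmb3, Psmd11 1376069_at, Psmb2 and Psmb7 led there, with differences of 0.088 to 0.16. At 0.1, 1, 10 and 100 mg/kg 0 of 49 passed (background 0% each), with 2, 3, 2 and 0 higher and 0 lower at an unadjusted p under 0.05. Among all probe sets 4.87%, 5.27%, 4.44% and 2.35% were higher at that level, and 2.66%, 3.25%, 1.87% and 2.3% lower. Psmd12 and Psma3 led at 0.1 mg/kg, ahead of Psme1 1367663_at, Psmd5 and Psmd7 1389245_at, and Psmd3, Psmb7 and Psmb2 at 1 mg/kg, ahead of Psmd14 1394082_at and Psmd2. At 10 mg/kg Psme3ip1 and Psma3 led, ahead of Psmc5, Psmd1 and Psmc6 1384323_at, and at 100 mg/kg Psme3ip1, Psmc6 1379850_at, Psmd2, Psmd7 1389245_at and Psmd9 1397686_at. Along the dose rank 0 of 49 passed in limma (background 0.0966%), with 2 higher and 0 lower at an unadjusted p under 0.05 (4.68% and 4.06% of all), Psmb3 and Psmd6, ahead of Psmb2, Psme2 and Psmd11 1376069_at. Along the linear dose 0 passed (background 1.25%), with 4 higher and 0 lower unadjusted (5.71% and 5.75% of all): Psmb3, Psme2, Psmd6 and Psma6. Without the 2 kidneys high in adipose markers the median difference was 0.045 at 500 mg/kg and 0.0072 at 300 mg/kg, and again 0 passed.

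The liver response was set directly against the kidney response. At 500 mg/kg, 0 of 49 members differed between organs in limma (background 0.114%), with 2 higher and 0 lower in liver at an unadjusted p under 0.05 (3.06% and 4.65% of all). The liver minus kidney difference was above 0 for 36 of 49 (73.5%, against 46.8% of all), with a median of 0.055, against -0.012 for all. Psmd7 1389245_at and Psmb5 led, with 0.18 (95% interval 0.018 to 0.34, adjusted p = 0.561) and 0.12 (0.0027 to 0.23, adjusted p = 0.628), ahead of Psmd9 1397686_at, which ran the other way (-0.34), Psmd5, and Psmc4 1381794_at (0.28). These probe sets of Psmd9 and Psmc4 are faint, with control means of 5.20 and 4.65 in liver and 4.85 and 4.63 in kidney. For the linear dose slopes, liver minus kidney, 0 of 49 passed in limma (background 1.18%), with 9 higher and 0 lower at an unadjusted p under 0.05 (5.17% and 6.9% of all). The slope was higher in liver for 43 of 49 (87.8%, against 48.9% of all). The smallest adjusted p was 0.0668, for Psmb5, whose slope was 0.029 ± 0.0085 per 100 mg/kg higher in liver (SE), ahead of Psmd3, Psmd7 1389245_at, Psma5 and Psmc2. No single member passed either test of the difference between organs.

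**Figure D5:**
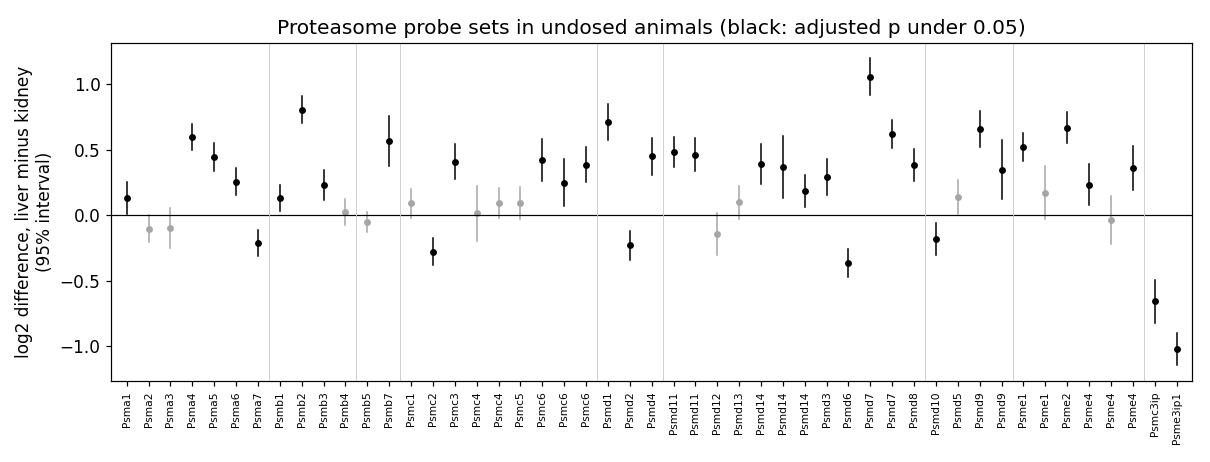
Difference between control livers and control kidneys for each member probe set on the log2 scale, liver minus kidney, with its 95% interval, in order of role; black marks adjusted p under 0.05. Of 49 probe sets, 29 are higher and 7 lower in liver.

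Between undosed organs, proteasome transcripts differed about as often as transcripts in general. Of 49 members, 36 passed between control livers and control kidneys in limma, 73.5% against a background of 72.2%. By direction, 29 were higher in liver (59.2%, against 32.8%) and 7 lower (14.3%, against 39.4%). The median was 0.23 higher in liver, against -0.028 for all. Livers and kidneys did not overlap for 23 members that were higher in liver and 6 that were lower (46.9% and 12.2%, against 25.8% and 33%). No source used here says whether both organs were normalised together, so a shift common to all probe sets cannot be told apart from biology.

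Higher in liver were above all Psmd7, by 1.05 ± 0.071 (1379322_at) and 0.62 ± 0.054 (1389245_at), Psmb2 by 0.80 ± 0.051, Psmd1 by 0.71 ± 0.068 and Psme2 by 0.67 ± 0.059 (SE; limma adjusted p at most 2.66e-13). Psmb2 1398786_at measured 10.95, 10.98, 11.02, 11.06 and 11.08 in control livers, against 10.11, 10.16, 10.18, 10.27 and 10.36 in control kidneys. Psme2 measured 9.84, 9.85, 9.96, 9.97 and 10.02 in control livers, against 9.17, 9.20, 9.27, 9.32 and 9.35 in control kidneys. Neither gene came near an overlap. Further differences above 0.4 were those of Psmd9 1368184_at (0.65), Psma4 (0.60), Psmb7 (0.57), Psme1 (0.52), both Psmd11 probe sets (0.48 and 0.46), Psmd4 (0.45), Psma5 (0.44), Psmc6 1379850_at (0.42) and Psmc3 (0.41). The immunoproteasome subunits Psmb8, Psmb9 and Psmb10, which replace the catalytic subunits in immune cells and after interferon, are not members; all 3 were higher in liver, by 2.17 ± 0.19, 1.46 ± 0.16 and 1.33 ± 0.10 (SE). The immune markers were higher in liver too, with 5 of 9 measured in both organs higher and 1 lower; their part in the Psme1 and Psme2 values was not tested.

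Lower in liver were Psme3ip1 (-1.02 ± 0.061 on the log2 scale), Psmc3ip (-0.66 ± 0.083), Psmd6 (-0.36 ± 0.054), Psmc2 (-0.28 ± 0.052), Psmd2 (-0.23 ± 0.054), Psma7 (-0.21 ± 0.048) and Psmd10 (-0.18 ± 0.062, SE each). Psmd6 measured 9.75, 9.76, 9.78, 9.82 and 9.91 in control livers, against 10.08, 10.09, 10.20, 10.22 and 10.26 in control kidneys. Both genes that fit only the letters of the symbol rule were thus among the 7. Psmb5 differed by -0.055 ± 0.038 and Psmb4 by 0.022 ± 0.049 (SE), and neither passed. Subunits of a single complex therefore stood on both sides: of the 6 ATPases in 9 probe sets, 4 probe sets were higher in liver, 1 lower and 4 did not pass.

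Member transcripts varied together between animals of the same dose group. After the group means were removed, the median Pearson correlation over 1210 pairs of member probe sets of different genes was 0.30 in liver, and 82.7% of pairs were above 0, while over all pairs of kept probe sets the median was 0.004 (50.6% above 0). In kidney it was 0.18 over 1162 pairs (71.7% above 0), against 0.017. All pairs share the same 29 arrays of an organ. In liver Psmc5 was most in step with the others (median r = 0.55). Against the rest ran Psmc4 1381794_at (-0.28), Psmd9 1397686_at (-0.16) and Psme1 1394006_at (-0.052). These are faint probe sets, with means of 4.65, 5.20 and 4.88 in control livers, where array medians were 5.26 or more.

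Probe sets of the same gene mostly followed each other, with a median correlation of 0.53 over 15 pairs in liver and 0.29 over 14 in kidney. The 3 Psmc6 probe sets correlated at 0.67 to 0.75 in liver, and the 2 of Psmd7 at 0.53. Below 0 were the pairs of Psmc4 (-0.19 in liver, -0.33 in kidney) and Psme1 (-0.21 and -0.46). In each pair a probe set is faint, under the array medians, so opposite behaviour of the transcripts cannot be read from them. Psmc4 1381794_at averaged 4.65 in control livers and 4.63 in control kidneys, and Psme1 1394006_at 4.88 and 4.71. The 2 probe sets of Psmd9, of which 1397686_at is faint too, were nearly unrelated in both organs (0.062 and 0.024). So were those of Psmd11 in kidney (0.031). The single arrays given above for Psmc4 and Psme1 are those of the brightest probe set.

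Genes around the proteasome, from lists drawn up for this description, moved little in liver at 500 mg/kg. There the median of all 11275 measured genes was 0.0060, and 51.8% of them were above control. Assembly chaperones of the core and related factors (Psmg1, Pomp, Akirin2 and others) were higher in 6 of 8 cases, with a median of 0.094, and 0 passed in limma. Proteasome subunits and partners with other symbols (the partner list), such as Usp14, Zfand5 and Sem1, were higher in 9 of 12. Their median was 0.050, and 0 passed. The p97 segregase, which extracts substrates for the proteasome, and its cofactors were higher in 8 of 8, with a median of 0.10. Faf2, Ufd1 and Nsfl1c led at 0.15 to 0.18, and 0 passed. The mean of the p97 list was 9.23, 9.30, 9.28 and 9.26 at 0.1, 1, 10 and 100 mg/kg. It was 9.30 at 300 mg/kg and 9.34 at 500 mg/kg, against 9.23 in controls. Ubiquitin genes and ubiquitin-transferring enzymes were higher in 4 of 11 (median -0.023), led by Ube2n, Ube2r2 and Huwe1, which were lower without passing.

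Regulators of proteasome genes, including Nfe2l1, Nfe2l2 and the NF-Y subunits, were higher in 5 of 14 cases (median -0.037), and 0 passed; Bach1 differed by 0.35 ± 0.12, Nfyc by 0.15 ± 0.062 and Ngly1 by -0.077 ± 0.065 (SE). Of 11 measured targets of Nrf2, 10 were above control, with a median of 0.14, and 0 passed in limma at 500 mg/kg. Srxn1, sulfiredoxin, came nearest with 0.56 ± 0.14 (SE, adjusted p = 0.0557), ahead of the glutathione transferase Gsta3 (0.97 ± 0.35) and the cystine carrier Slc7a11 (1.01 ± 0.46). Along the linear dose, Gsta3 and Srxn1 rose by 0.23 and 0.078 per 100 mg/kg (limma adjusted p = 0.0077 and 0.0376). The mean of the 11 Nrf2 targets in liver was 8.55, 8.71, 8.69 and 8.64 at 0.1, 1, 10 and 100 mg/kg. It was 8.80 at 300 mg/kg and 8.88 at 500 mg/kg, against 8.59 in controls. Single livers ran from 8.69 to 9.02 at 500 mg/kg and from 8.42 to 8.75 in controls, so these groups overlapped. In kidney only 3 of 10 measured Nrf2 targets were above control at 500 mg/kg (median -0.045), and 0 passed.

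Heat shock genes in liver were higher in 8 of 10 at 500 mg/kg (median 0.067), and 0 passed; led by the mitochondrial chaperone Hspe1 (0.14 ± 0.062), Hspa1a (-0.40 ± 0.29) and Hsf1 (0.16 ± 0.13, SE). Along the linear dose Hspe1 rose by 0.046 per 100 mg/kg (limma adjusted p = 0.0048). Immunoproteasome subunits differed by 0.26 ± 0.22 (Psmb8), 0.053 ± 0.15 (Psmb9) and -0.028 ± 0.11 (Psmb10, SE), and interferon response genes were higher in 5 of 13 (median -0.085), led by B2m, Irf1 and Ifit1, with 0 passing. In kidney at 500 mg/kg, core assembly factors were above control in 7 of 8 (median 0.086), led by Psmg4 (0.23 ± 0.063) and Pomp (0.14 ± 0.044, SE), and 0 passed in limma. Along the linear dose in kidney Psmg4 rose by 0.039 per 100 mg/kg (limma adjusted p = 0.0340), and in liver its slope was -0.032 (adjusted p = 0.136).

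At an unadjusted p under 0.05, the liver lists at 500 mg/kg held 2 higher assembly factors, 2 higher p97 genes, 2 higher regulators, 3 higher Nrf2 targets, 1 higher heat shock gene and 1 lower interferon gene. The partner, ubiquitin and immunoproteasome lists held 0 in either direction. Over all 11275 genes, 738 were higher and 811 lower at that level, and 44 passed the adjusted threshold each way.

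In kidney at 500 mg/kg, 0 genes of any of these lists passed in limma. The median of all 11204 genes was 0.016, and 55.9% of them were above control. Immunoproteasome subunits were above control in 3 of 3, with a median of 0.097. Genes of the partner list were so in 7 of 12 (median 0.020), led by Ubqln1 and Sem1 (0.12 and 0.14) and Ubqln2 (-0.096). The p97 genes were above control in 6 of 8 (median 0.025), ubiquitin genes in 4 of 11 (median -0.0092), regulators in 8 of 14 (median 0.011), heat shock genes in 5 of 10 (median 0.029) and interferon genes in 8 of 13 (median 0.064). Along the linear dose, the heat shock cochaperone Bag3 fell (-0.055 per 100 mg/kg, limma adjusted p = 0.0440).

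Cell type markers were followed beside the members. At 500 mg/kg in liver, Cd74 was the 1 macrophage and lymphocyte marker of 13 that fell (-0.59 ± 0.14, SE, limma adjusted p = 0.0442), ahead of Csf1r and Adgre1, and the median of the 13 was -0.25. Of the 8 hepatocyte markers, Tat rose (1.39 ± 0.29, adjusted p = 0.0225) and Apoa1 fell (-0.30 ± 0.066, SE, adjusted p = 0.0292), ahead of Serpina1. The 6 adipose markers had a median of 0.22, led by Cidec, Plin1 and Cidea, and the 5 kidney markers one of -0.089, led by Slc34a1, Aqp2 and Lrp2, with 0 passing in either list. In kidney at 500 mg/kg, 0 of the 9 macrophage and lymphocyte markers were above control (median -0.17), led by Adgre1, Ptprc and Nkg7. Of the 6 adipose markers, 6 were above control there (median 0.87), led by Cidea, Cidec and Ucp1. The adipose mean was 10.50 in replicate 3, and 6.05, 6.33 and 6.23 in replicates 1, 2 and 4. Control kidneys measured 6.10 to 6.49, so only replicate 3 lay above them. The 5 hepatocyte markers, led by Cyp2e1, had a median of -0.025 there, and the 9 kidney markers, led by Slc12a3, Umod and Nphs1, one of 0.072. The part of these markers in the member values was not tested, apart from the fit without the 2 kidneys high in adipose markers.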

How the data were processed

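RNA of 29 livers and 29 kidneys was measured on Affymetrix rat expression arrays. The deposited table holds log2 values that the authors summarised with RMA, per the submitters' processing notes. No source used here gives its version or says whether both organs were normalised together. The table names every sample, and no value was missing. The number of arrays limits the precision.

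Probe sets were kept per organ if they exceeded the 40th percentile of the same array in 4 or more arrays. Limma (version 3.58.1, R 4.3.3), with lmFit and eBayes with an intensity trend, was run over the 29 arrays of each organ. A model of group means gave each dose against control, and a separate regression gave the slope along dose rank. Joint models over 58 arrays gave the organ differences, with slopes fitted separately from group means. P-values are two-sided with Benjamini-Hochberg adjustment over all kept probe sets, and adjusted p under 0.05 passed. Lists use the brightest kept probe set of each gene, with p-values from the probe set fit. The code was tested on simulated data. Replicates are biological per the labels, and p-values measure the spread between these samples.

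The members, their roles and the lists (immunoproteasome, assembly factors, partners, regulators, ubiquitin, p97, heat shock, Nrf2 targets, interferon, and macrophage and lymphocyte, adipose, hepatocyte and kidney markers) were chosen with earlier results of these data known. Named are members that passed (at most 15 each way, by size), otherwise the 5 with the smallest p, set anchor genes with all arrays, and up to 3 genes of each list at 500 mg/kg. Further members were named by role after their values were seen. The labels do not say that a replicate number marks the same rat, so the samples were not paired. Same-numbered arrays of an organ in different dose groups did not all deviate together (correlations -0.25 to 0.21 in liver and -0.34 to 0.64 in kidney). Arrays of different dose groups cannot show whether a liver and a kidney came from the same rat. Alternatives were other filters, units of test, variance models, array weights, normalisations, a replicate block, and each array left out. The linear dose term was tried in place of the rank; its refits under other settings and its comparison between organs were added after seeing the data. Promoter windows came from RefSeq on GRCr8. No protein sequence was used here.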

Additional observations from a re-analysis of the deposited data

Results flagged for a closer look

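In 4 of 68 groups of arrays checked, a single array stood apart from the rest of its group. Chance alone flags about 1 in 20 groups. The check covered the mean over members and the set anchor genes, Psmb5, Psmb7, Psmd14, Psmd11, Psmc4, Psma5, Psme1, Psme2 and Psme4. Other genes given above with single arrays were not checked. Psme4 1368817_at was 9.7274 in liver 300 mg/kg replicate 3, where the nearest of the other arrays was 9.4629. Psmd14 1383429_at was 9.4622 in liver 500 mg/kg replicate 1, with the nearest array at 9.7394. Psmb7 1367656_at was 9.2811 in kidney 300 mg/kg replicate 1, with the nearest at 8.9418. Psmb5 1371348_at was 11.3955 in kidney 300 mg/kg replicate 3, one of the kidneys high in adipose markers, with the nearest at 11.296.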

How the results depend on the processing

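Under every alternative run, 0 members passed at any single dose in either organ or in the organ difference at 500 mg/kg, and over 3955 comparisons of named values no value that passed changed sign. Of these comparisons, 3821 stayed on the same side of the threshold, 119 no longer passed and 15 newly passed. Values that passed in neither setting changed sign in 55 comparisons, over 14 of the 152 named values, among them Psmd14 1383429_at in liver at 500 mg/kg (-0.049 to 0.054) and Psmc4 1398869_at in kidney at 500 mg/kg (-0.038 to 0.11). Along the liver dose rank the count of 0 became 1 with the stricter filter and 13 with dose as a linear term, and ranged from 0 to 2 with each array left out (1 without control replicate 1 or 3, 2 without 300 mg/kg replicate 4). The linear count of 13 was 5 with no filter, 6 with eBayes without the trend and 8 with the replicate block, and ranged from 3 to 16 with each array left out. Psmb5 lost its call when the probe sets of a gene were averaged (0.027, limma adjusted p = 0.0893) and Psmb1 without liver 500 mg/kg replicate 3 (adjusted p = 0.0554). The Psmb5 average joins 1371348_at with the faint 1385532_x_at, whose means in control livers were 11.26 and 4.64. For liver minus kidney slopes the count of 0 became 1 with the stricter filter, array quality weights or cyclic loess, and ranged from 0 to 1 with each array left out (1 without liver control replicate 1, liver 300 mg/kg replicate 4 or kidney 300 mg/kg replicate 3). The cause of these shifts was not tested. The median between control organs, 0.23, was 0.18 with the brightest probe set per gene and 0.16 with the mean per gene, where genes with several probe sets count once. With each array left out, the median ranged from 0.083 to 0.13 at 500 mg/kg and 0.050 to 0.10 at 300 mg/kg in liver, from 0.033 to 0.063 and -0.0016 to 0.030 in kidney, and from 0.22 to 0.27 between control organs, with 34 to 37 calls. With the replicate block, the medians were 0.094 and 0.075 in liver and 0.063 and 0.030 in kidney at 500 and 300 mg/kg, and 36 members passed between control organs. Arrays of the same dose and number correlated slightly between the organs (median 0.15, range -0.0099 to 0.26). For other numbers of the same dose the median was -0.040 (range -0.20 to 0.14). This is a hint of shared animals from the data only, and the main comparisons between organs did not use it. Within an organ, 2 of 29 livers and 8 of 29 kidneys correlated best with their own number. No chance level was worked out for these counts. They compare arrays of different dose groups, so they cannot show whether a liver and a kidney share a rat.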
